A study of Mus musculus with 4 samples.

Results

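The cytosolic translation machinery was examined through 71 genes of the 9114 in the table. Gene names starting Eif cover the initiation factors and their partners, the eIF2 kinases and Eif5a2, listed here under elongation. Names starting Eef cover the elongation factors and enzymes that modify them. The other genes encode the termination and recycling factors Etf1, Gspt and Abce1, the related Abcf proteins and the cytosolic poly(A)-binding proteins (Pabpc). They also encode the La-related proteins (Larp), the cytosolic aminoacyl-tRNA synthetases and the AIMP scaffold of the synthetase complex. Members were taken by gene name, without the 4E-BP inhibitors (Eif4ebp), which are described with the upstream pathway. Of the rows named by an Ensembl identifier, 0 carried a symbol that would have added to the set. RNA came from meningeal lymphatic endothelial cells, taken at an age of 20 to 24 months from C57BL/6J males. The animals had been injected in the cisterna magna with 5 µL of the adeno-associated virus AAV1, which encoded either mouse VEGF-C, the growth factor of lymphatic vessels (the mVEGF-C group), or the reporter eGFP (the control group). In both groups the CMV promoter, which is not restricted to a cell type, drove the gene, so the transduced cells need not be the cells sequenced. Cells were collected 4 weeks later as DAPI-negative, CD45-negative cells positive for CD31 and podoplanin, and each group had 2 libraries, each from 10 pooled mice.

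Translation of a messenger RNA starts when eIF2, loaded with GTP and the initiator tRNA, joins the small ribosomal subunit together with eIF1, eIF1A, eIF3 and eIF5. The cap-binding complex eIF4F brings this assembly to the messenger RNA, and eIF5B then joins the large subunit. eIF2B reloads eIF2 with GTP, and phosphorylation of eIF2 by any of its 4 kinases blocks this exchange. The block lowers protein synthesis at large and favours a few messages such as that of the transcription factor ATF4, whose known targets include several tRNA synthetase genes. eEF1A then delivers aminoacylated tRNAs and eEF2 moves the ribosome along, until eRF1 and eRF3 release the chain and ABCE1 splits the ribosome.

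The libraries held 25610683 to 28632461 reads on the genes of the table. All 8 lymphatic endothelial markers listed had a row, with a summed level of 453217 to 514249 normalised counts in the eGFP and 467598 to 561248 in the mVEGF-C libraries. The 5 fibroblast markers with a row summed to 25332 to 61485 and 37736 to 67222, and the 3 blood endothelial markers to 7071 to 10440 and 7063 to 15557. Both mural markers with a row summed to 8471 to 15948 and 8020 to 11406. Of the 7 leukocyte markers, Mrc1 and Cd3e had a row, with a sum of 27592 to 32892 and 23307 to 28512, and 1 of them was at 0 in a library. Mrc1 made up nearly all of this sum, at 27577 and 32880 in eGFP and 28512 and 23299 in mVEGF-C libraries. The sum thus follows 1 gene and is not a measure of leukocyte content. The 3 neural markers with a row summed to 677 to 905 and 350 to 1521. All these ranges overlapped between the groups. The erythroid gene Hba-a1 did not, at 245 to 318 in eGFP and 100 to 167 in mVEGF-C libraries. The part of these cells in the results was not tested. The table had been limited by agreement within the groups. On the log2 scale of reads + 1, the SD of a pair of libraries reached 2.00 at most for eGFP and 2.999 for mVEGF-C. Factors outside those limits are not analysed here, and the spread between replicates is understated. Nothing in the labels says that the pools were processed independently, so the spread between libraries may be partly technical.

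Did VEGF-C delivery change the expression of these genes? All 71 passed the filter on low values, a mean of at least 10 normalised counts. By limma, 0 of the 71 were called at an adjusted p under 0.05, where 2.14% of all 9063 genes tested were called, 0.828% higher and 1.31% lower. At an unadjusted p under 0.05 there were 4 higher and 2 lower members, or 8.45% of them, against 11.8% of all genes (5.09% higher and 6.7% lower). By edgeR 0 were called as well, against 1.61% of all genes (0.739% higher and 0.872% lower). At an unadjusted p under 0.05 in edgeR, 4 members were higher and 0 lower, where 538 of the 9063 genes were higher and 530 lower. DESeq2 called 3 members higher, Aimp2, Eif5b and Farsa, and 0 lower. It called 6.63% of all genes, 3.12% higher and 3.51% lower. Adjusted p in limma ran from 0.112 to 0.999 over the 71. In bulk RNA, fewer cells of a type and less RNA per cell cannot be told apart.

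More fold changes lay above than below 0. Of the 71, 44 (62.0%) had a log2 fold change above 0 in mVEGF-C against eGFP, with a median of 0.34, while 49.5% of all genes did, with a median of -0.02. The standard error of a single member had a median of 1.04 on the log2 scale, which is not an error of the median over members. The SD between libraries of the member median was 0.179 on the log2 scale. The median normalised count of the members was 885.6 and 1218 in eGFP and 1430 and 1146 in mVEGF-C libraries, which overlapped. The median log2 fold change was 0.18 without mVEGF-C 1 and between 0.27 and 0.40 when another library was left out. The groups did not overlap for 24 members (33.8%), with mVEGF-C higher for 15 and lower for 9. Over all genes this held for 39.2%, with 19.4% higher and 19.8% lower. The difference between group means exceeded the gap within each pair for 15 of 71 members (21.1%), and for 26.1% of all genes.

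**Figure D1:**
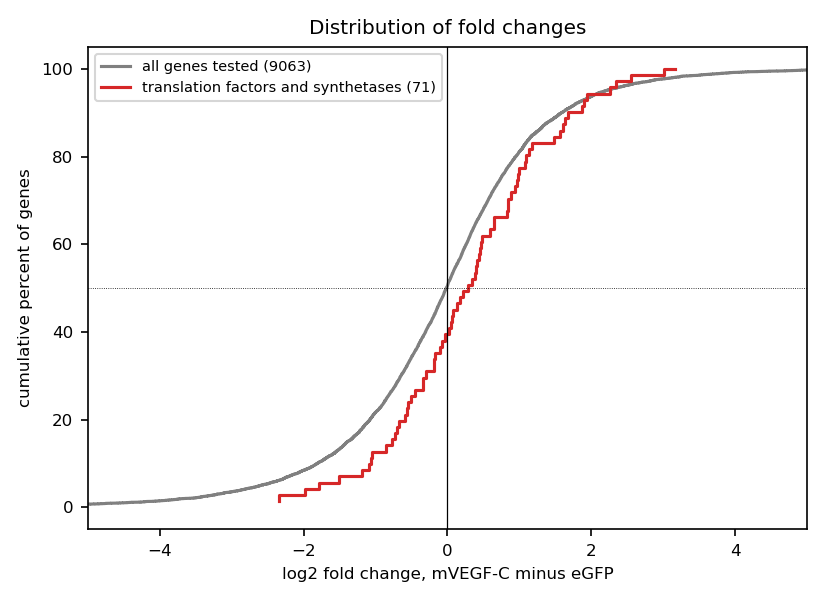
Cumulative percent of genes (vertical axis) by log2 fold change, mVEGF-C minus eGFP (horizontal axis, shown from -5 to 5), for the 71 translation factor and synthetase genes (red) and all 9063 genes tested (grey). The red curve crosses 50% at 0.34 and the grey curve at -0.02, and the members lie between -2.34 and 3.16.

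**Figure D2:**
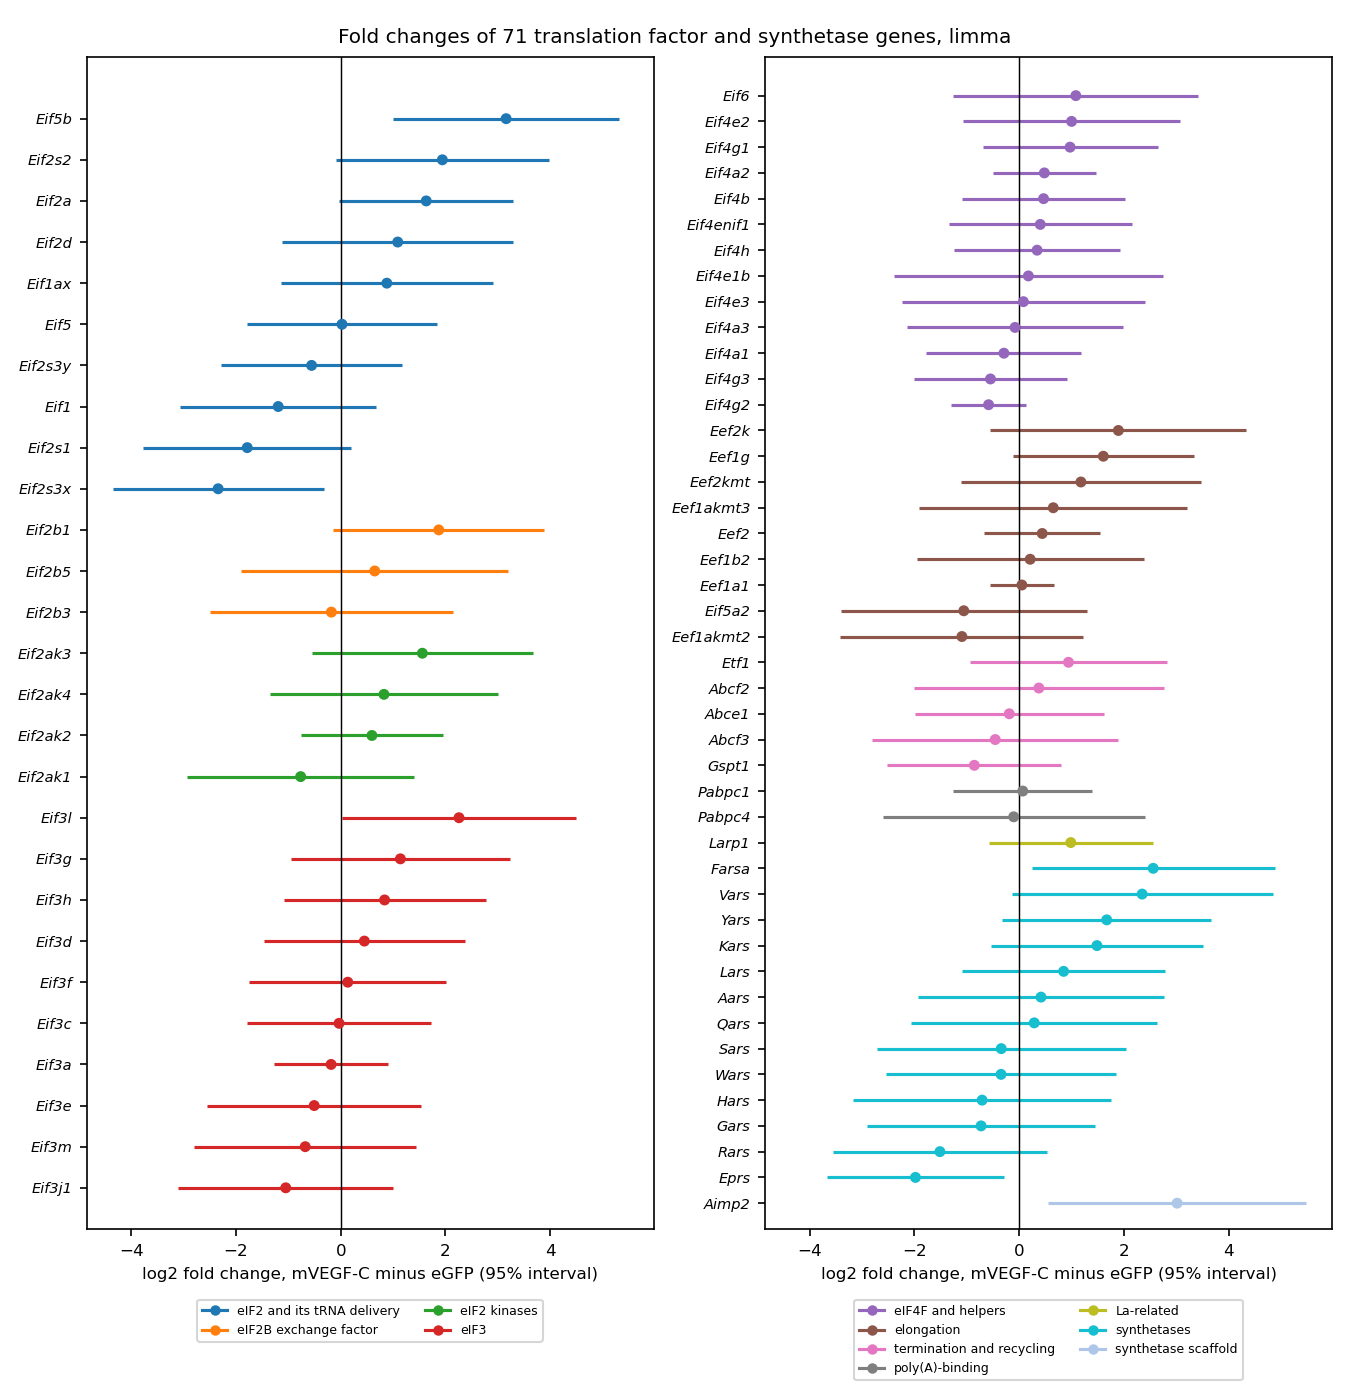
Log2 fold changes from limma (points) with 95% intervals (lines) for the 71 genes, coloured by role. The intervals of Eif5b, Aimp2, Farsa and Eif3l lie above 0 and those of Eif2s3x and Eprs below 0 before adjustment, and 0 genes pass after it.

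Among the factors that build the scanning ribosome, 10 genes were measured, 6 above and 4 below 0, with a median of 0.45. Eif5b, the GTPase that joins the large subunit, had the lowest p of all 71. It lies on chromosome 1, 37998010 to 38055579 (GRCm38, GENCODE vM21). Its normalised counts were 596 and 134 in eGFP 1 and 2, and 2018 and 3174 in mVEGF-C 1 and 2. Every mVEGF-C value was thus more than 3 times the higher control, and the groups did not overlap. The log2 fold change was 3.16 (95% interval 1.01 to 5.31, limma adjusted p = 0.112). It passed in DESeq2 (adjusted p = 0.035) but not in edgeR (adjusted p = 0.207).

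The subunits of eIF2 had fold changes on both sides of 0. Eif2s2, the beta subunit, had 997 and 383 in eGFP and 3897 and 1446 in mVEGF-C libraries, a log2 fold change of 1.94 (interval -0.09 to 3.97). Eif2s1, the alpha subunit whose phosphorylation stops recycling, had 3334 and 1872 against 1169 and 449, a fold change of -1.78 (interval -3.77 to 0.20). In each case the groups did not overlap, and adjusted p was 0.462 and 0.517 in limma. The gamma subunit binds GTP and the tRNA and has an X-linked and a Y-linked gene, both expressed in these male mice. Their sequences are alike, so reads can be shared between them.

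Eif2s3x, the X-linked gene (chromosome X, 94188707 to 94212862), had 3312 and 2397 normalised counts in eGFP 1 and 2, 141 in mVEGF-C 1 and 2179 in mVEGF-C 2. Both mVEGF-C values were below the controls, mVEGF-C 2 by a small margin and mVEGF-C 1 by far. The log2 fold change was -2.34 (95% interval -4.36 to -0.32, limma adjusted p = 0.288). It was -0.37 without mVEGF-C 1 and -4.31 without mVEGF-C 2, where it was called (adjusted p = 0.0212) and 3.22% of all genes were, with 1 mVEGF-C library assumed to vary like the others. edgeR gave -1.27 and DESeq2 -1.3. Eif2s3y, the Y-linked gene, had 2495 and 3572 against 3048 and 1350, a fold change of -0.56. The log2 ratio of Eif2s3x to Eif2s3y, chosen after its values were seen, was 0.41 and -0.58 in eGFP, 0.69 in mVEGF-C 2 and -4.43 in mVEGF-C 1. The sum of both genes, also taken after the values were seen, was 5807 and 5969 in eGFP and 3189 and 3529 in mVEGF-C libraries. Among all genes tested, 39.2% had groups that did not overlap.

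The remaining 5 factors of early initiation were spread around 0. Eif2a, an alternative initiator tRNA carrier, had 1815 and 1397 in eGFP against 6180 and 3946 in mVEGF-C libraries, which did not overlap. Its log2 fold change was 1.63 (interval -0.03 to 3.30, limma adjusted p = 0.437). Eif1, which guards start codon choice, had 1377 and 5138 against 1041 and 1298, lower in both mVEGF-C libraries. Its fold change of -1.19 shrank to -0.24 without eGFP 2, the library with the high value. Eif1ax was split within the groups, with 358 and 2231 against 5012 and 541. Eif2d (1.09) and Eif5, the GTPase-activating partner of eIF2 (0.02), overlapped between the groups too. Eif1a, Eif1b and Eif1ad were not analysed here.

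**Figure D3:**
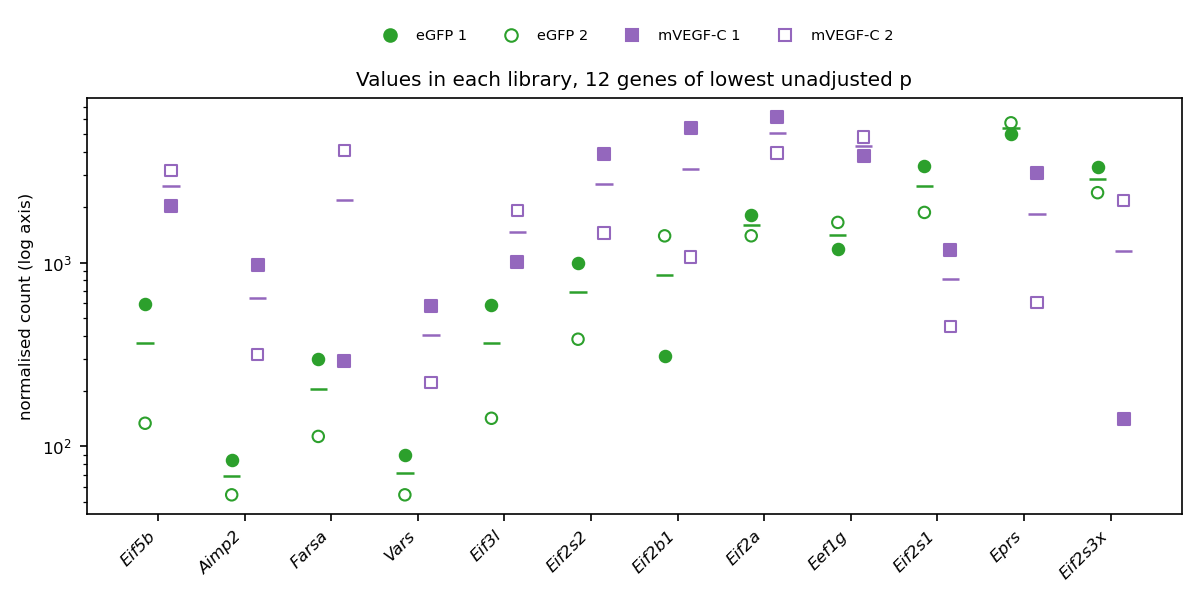
Normalised counts (log axis) of the 12 members of lowest unadjusted p, in eGFP 1 (filled circle), eGFP 2 (open circle), mVEGF-C 1 (filled square) and mVEGF-C 2 (open square), with a dash at each group mean. For Eif5b, Aimp2 and Vars both mVEGF-C libraries lie above both controls, whereas Farsa (4080 against 291) and Eif2s3x (2179 against 141) are split within the mVEGF-C pair.

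eIF2B was represented by 3 of its 5 subunits, and 0 of these had groups that did not overlap, against 39.2% of all genes. Eif2b1, of the regulatory part, had 310 and 1396 in eGFP, 5415 in mVEGF-C 1 and 1073 in mVEGF-C 2. One mVEGF-C library was high and the other lay between the controls. The log2 fold change was 1.87 (interval -0.14 to 3.89, limma adjusted p = 0.49), and 0.70 without mVEGF-C 1. Eif2b3 and Eif2b5, of the catalytic part, stood at -0.18 and 0.65. Eif2b5 was among the 5 members of lowest level per length, at 41.1 normalised counts per kilobase of exon. Eif2b2 and Eif2b4 were not analysed here.

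All 4 eIF2 kinases were measured, 3 above and 1 below 0. Eif2ak3 encodes PERK, the kinase of the endoplasmic reticulum stress response. It had 476 and 667 in eGFP and 3115 and 885 in mVEGF-C libraries, which did not overlap, at 1.56 (interval -0.55 to 3.67, limma adjusted p = 0.648). Eif2ak2 encodes PKR, the kinase activated by double-stranded RNA, and is known to be induced by interferon. It was the most abundant kinase per length (1313 per kilobase) and had 3851 and 4991 against 8861 and 4952, at 0.60 (interval -0.76 to 1.95). Here mVEGF-C 1 alone stood above the others. Eif2ak4, the amino acid sensor GCN2, had 791 and 439 against 582 and 1875 (0.82). Eif2ak1, the haem-regulated kinase, had 1148 and 950 against 496 and 761 (-0.77), lower in both mVEGF-C libraries.

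eIF3, the largest initiation factor and the platform that binds the other factors, had 10 subunit genes measured. Of these 5 were above and 5 below 0, with a median of 0.05. Eif3l (chromosome 15, 79075179 to 79094405) had 587 and 142 in eGFP and 1001 and 1922 in mVEGF-C libraries. The groups did not overlap, and the log2 fold change was 2.26 (interval 0.02 to 4.50, limma adjusted p = 0.417). Eif3g, an RNA-binding subunit, had 710 and 644 against 966 and 2299, which did not overlap either, at 1.14 (interval -0.96 to 3.24). Eif3j1, whose copy Eif3j2 was not analysed here and can share its reads, had 807 and 3292 against 540 and 1146, at -1.05. Its groups overlapped. Eif3a, the scaffold subunit, was the most abundant, at 7806 and 13536 against 8040 and 10183 (-0.18, interval -1.27 to 0.90).

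The other eIF3 subunits separated the libraries within the groups rather than the groups. Eif3m and Eif3e were both lowest in mVEGF-C 1. Eif3m had 717 and 1906 in eGFP, 279 in mVEGF-C 1 and 1911 in mVEGF-C 2, and Eif3e had 1152, 1626, 480 and 1932 in the same order. Eif3d had 783 and 2419 against 2832 and 1250, Eif3f 1067 and 2580 against 3212 and 1032, and Eif3h 905 and 1502 against 3079 and 1409. These 3 were highest in mVEGF-C 1, the library in which Eif3m and Eif3e were lowest. Eif3c had 3113 and 1750 against 1944 and 2681 (-0.03). Although the subunits form 1 complex, their levels per length within a library spanned 10.2-fold and 36.1-fold in eGFP 1 and 2, and 23.9-fold and 9.86-fold in mVEGF-C 1 and 2. The lowest subunit was Eif3l in eGFP 2 and Eif3j1 in the other libraries. Eif3j1 has the longest merged exons of these subunits, 5413 bases, so its level per length depends on the length used. Eif3b, Eif3i and Eif3k were not analysed here.

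For eIF4F and its helpers 13 genes were measured, with log2 fold changes from -0.59 to 1.08 and a median of 0.34. Eif4g2 (DAP5), a relative of the eIF4G scaffold that cannot bind the cap-binding protein, had the lowest p. It had 24907 and 37322 in eGFP against 19063 and 21658 in mVEGF-C libraries, lower in both. As one of the most abundant members it also had a small error, at -0.59 (95% interval -1.29 to 0.12, limma adjusted p = 0.574). Eif4g1, the main scaffold, had 3468 and 1130 against 2548 and 5913 (0.97, interval -0.70 to 2.64). Eif4g3 had 4239 and 6202 against 5100 and 2408 (-0.55). The log2 ratio of Eif4g1 to Eif4g2 was -2.84 and -5.05 in eGFP and -2.90 and -1.87 in mVEGF-C libraries. That ratio, which does not depend on library scaling, overlapped between the groups.

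The helicase subunit eIF4A, which unwinds the leader of the message, has a pair of close paralogs. Eif4a2 had 9543 and 11147 in eGFP, 21483 in mVEGF-C 1 and 9639 in mVEGF-C 2 (0.48, interval -0.50 to 1.46). Eif4a1 had 2692 and 7706 against 5285 and 2619 (-0.29, interval -1.77 to 1.19). In normalised counts, Eif4a1 stood below Eif4a2 in all 4 libraries, with log2 ratios of -1.83, -0.53, -2.02 and -1.88 in the order eGFP 1, eGFP 2, mVEGF-C 1, mVEGF-C 2. Per length the ratio was above 0 in eGFP 2, at 0.32. Eif4a3, the member of this family in the exon junction complex, had 1092 and 1218 in eGFP but 3761 in mVEGF-C 1 and 316 in mVEGF-C 2. With values on either side of the controls, its direction depended on the test, at -0.08 in limma and 0.83 in edgeR.

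Of the cap-binding family, Eif4e itself was not analysed here. Eif4e2, a cap-binding relative tied to repression, had 1323 and 418 in eGFP and 1430 and 1550 in mVEGF-C libraries, above the controls without overlap. This held for 1 of the 13 genes of the role list, against 19.4% of all genes. The log2 fold change of Eif4e2 was 1.00 (interval -1.08 to 3.08, limma adjusted p = 0.831). Eif4e3 (0.08) and Eif4e1b (0.17) overlapped between the groups, with Eif4e1b, an oocyte form of the cap-binding protein, at 21.5 to 65.2 normalised counts. The helicase cofactors Eif4b (0.46) and Eif4h (0.34) and the cap-binding transporter Eif4enif1 (0.40) overlapped between the groups. Eif6, which keeps the large subunit apart from the small one, had 163 and 504 against 1138 and 324 (1.08).

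The elongation list held 9 measured genes, for elongation factors and for enzymes that modify them. Of these 7 were above and 2 below 0, with a median of 0.44. Eef1a1, the tRNA carrier, was the most abundant member, at rank 38 in the table by mean normalised count and far above the others per length (19325 per kilobase). It had 27234 and 41194 in eGFP and 40647 and 29603 in mVEGF-C libraries. The overlapping groups gave a log2 fold change of 0.05 with the narrowest interval of all members, -0.56 to 0.66. Genomes of mammals hold many processed copies of Eef1a1, so some reads may be shared. Eef1g, a subunit of the exchange factor that reloads eEF1A, had 1186 and 1652 against 3776 and 4808, which did not overlap. Its fold change was 1.61 (interval -0.12 to 3.33, limma adjusted p = 0.49), and it kept to 1.37 or more with any 1 library left out. Eef1b2, the catalytic subunit of the same factor, had 581 and 985 against 1001 and 764 (0.21), so the subunits of the exchange factor differed in their values.

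The translocase Eef2 had 7875 and 7981 in eGFP and 8805 and 13119 in mVEGF-C libraries, without overlap (0.44, interval -0.66 to 1.54). Eef2k, the kinase that inhibits eEF2, had 116 and 122 against 417 and 472, close within each pair. Both mVEGF-C libraries were more than 3 times the controls. Because limma took the variance from the trend over all genes, its error did not reflect this agreement, and the log2 fold change was 1.89 with an interval of -0.55 to 4.34 (adjusted p = 0.623). Without the trend the adjusted p was 0.446, and DESeq2 gave 0.167. Both of the next genes were lower in both mVEGF-C libraries. Eef1akmt2, a lysine methyltransferase of eEF1A, had 653 and 678 against 345 and 281 (-1.09), and Eif5a2, a paralog of eIF5A, had 505 and 652 against 213 and 356 (-1.06). Eef2kmt (1.18) and Eef1akmt3 (0.65), methyltransferases of eEF2 and eEF1A, overlapped. Eif5a and Eef1d were not analysed here.

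Of the termination and recycling factors 5 were measured, and 0 of these had groups that did not overlap, against 39.2% of all genes. Etf1 (eRF1), which reads stop codons, had 2624 and 585 in eGFP and 6182 and 915 in mVEGF-C libraries (0.94). Gspt1 (eRF3), its GTPase partner, had 2005 and 7300 against 2550 and 1749 (-0.86), and Abce1, the recycling ATPase, had 1078 and 4622 against 4265 and 898 (-0.19). For Etf1 and Abce1 the values differed more within each group than between the group means, and Gspt1 was high in eGFP 2 alone. Abcf2 and Abcf3, relatives of ABCE1, stood at 0.38 and -0.46. Pabpc1, the main poly(A)-binding protein, was steadier, at 5790 and 5335 against 4615 and 7354 (0.07, interval -1.26 to 1.39). Pabpc4 stood at -0.10, with 52.4 in mVEGF-C 1 and 385 in mVEGF-C 2. Larp1 represses the messages of ribosomal proteins and translation factors when mTORC1 is inactive. It had 2559 and 2372 in eGFP and 5234 and 4544 in mVEGF-C libraries, tight within the groups and without overlap, at 0.98 (interval -0.58 to 2.55, limma adjusted p = 0.735).

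The synthetases attach amino acids to their tRNAs, and 13 cytosolic synthetase genes were measured. Of these 7 were above and 6 below 0, with a median of 0.29. Eprs, the bifunctional enzyme for glutamate and proline (chromosome 1, 185363044 to 185428360), had 5006 and 5750 in eGFP, 3050 in mVEGF-C 1 and 605 in mVEGF-C 2. Both mVEGF-C libraries lay below the controls. The log2 fold change was -1.98 (interval -3.66 to -0.30, limma adjusted p = 0.274), but -0.81 without mVEGF-C 2. Farsa, the alpha subunit of the phenylalanine enzyme (chromosome 8, 84856989 to 84869257), had 299 and 113 against 291 and 4080. The single library mVEGF-C 2 set its fold change of 2.56 (interval 0.24 to 4.88, limma adjusted p = 0.331), which was 0.65 without it. Without mVEGF-C 1 the gene was called, at 4.46 (adjusted p = 0.0388), where 1.96% of all genes were, again from 1 mVEGF-C library. DESeq2 also called it (adjusted p = 0.033), and edgeR did not (adjusted p = 0.124).

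Vars, the valine enzyme, had 89.5 and 54.5 in eGFP and 580 and 223 in mVEGF-C libraries, without overlap. Its log2 fold change was 2.35 (interval -0.14 to 4.84, limma adjusted p = 0.478). Yars, the tyrosine enzyme, had 886 and 619 against 1404 and 3965, also without overlap, at 1.67 (interval -0.32 to 3.67). Rars, the arginine enzyme, had 1038 and 3745 against 451 and 1054 (-1.51), and Kars, the lysine enzyme, 467 and 1182 against 4413 and 980 (1.48). Both were split within the groups. Gars was lower in both mVEGF-C libraries (791 and 1349 against 532 and 730), and Qars was higher in both by a small margin (409 and 306 against 454 and 411). Lars (0.85), Aars (0.42), Wars (-0.35), Sars (-0.34) and Hars (-0.71) overlapped. Cars, Dars, Farsb, Iars, Mars, Nars and Tars were not analysed here.

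Eprs, Kars, Lars, Qars and Rars encode enzymes of the multisynthetase complex, and Aimp2 encodes a scaffold that holds its subunits together. Aimp2 (chromosome 5, 143902704 to 143909847) had 84.2 and 54.5 in eGFP and 971 and 317 in mVEGF-C libraries, without overlap. The mVEGF-C values were more than 3 times the higher control. The log2 fold change was 3.01 (95% interval 0.55 to 5.48, limma adjusted p = 0.24). It passed in DESeq2 (adjusted p = 0.00997) and not in edgeR (adjusted p = 0.214), and lay between 2.21 and 3.82 with 1 library left out. The 5 enzymes of the complex that were measured did not share the direction of Aimp2, with Kars, Lars and Qars above 0 and Eprs and Rars below. Aimp1 was not analysed here.

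Synthetase genes are known targets of ATF4, which binds the C/EBP-ATF response element. Promoters from RefSeq (GRCm38.p6, 250 bases before to 50 after the start) were found for 55 of the 71 genes, as 65 promoters. The element, searched as TGATGNAA on both strands, was present in 5 of the 65 (7.69%) and in 3.97% of all 32851 promoters. Among the genes were Gars, Yars, Eef2k and Eif2s3x. Shown as examples of the letters matched are the elements of Gars and Yars, with the match in capitals, on the strand of the gene. Gars holds it in reverse. They lie at chr6:55037960-55037989 and chr4:129189895-129189924, with the first base of the match 30 bases before the start in Gars and at base 4 after it in Yars.

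Gars: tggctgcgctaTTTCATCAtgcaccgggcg

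Yars: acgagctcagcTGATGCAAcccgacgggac

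An E-box, CACGTG, the site of MYC and related factors, was present in 9 of the 65 promoters (13.8%) against 7.15% of all. Among the genes were Eef2, Eef2k, Eif3a, Eif3f, Eif4a1, Eif4g1, Eif4h and Eif5a2. Messages of many translation factors are known to start with a C and a run of pyrimidines, the TOP motif through which LARP1 and mTORC1 act. A C followed by at least 4 pyrimidines stood at the RefSeq start of 2 of the 65 promoters (3.08%) and of 2.51% of all. These were Eif3f (chr7:108934405-108934434) and Eif2s3x (chrX:94212632-94212661), shown with the pyrimidines from the annotated start on in capitals, after 10 bases of upstream sequence. In both genes the bases just before that start were pyrimidines too, so the run begins upstream of it. A start annotated a few bases off hides such a run, so the count says only what these coordinates hold. Their log2 fold changes were 0.13 and -2.34.

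Eif3f: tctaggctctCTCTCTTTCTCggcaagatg

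Eif2s3x: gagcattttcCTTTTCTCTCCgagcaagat

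Levels can be compared between genes per length only, as normalised count per kilobase of merged exons in GENCODE vM21. The 5 highest means over the 4 libraries were Eef1a1 (19325), Eif4a2 (4052), Eif4g2 (3219), Eef2 (3058) and Eif4a1 (2579). The ranges of the last 4 over the libraries overlapped, and the lowest Eef1a1 library, at 15181, was above all of theirs. The 5 lowest were Eif4e1b (20.0), Eef1akmt3 (26.5), Eef2k (40.5), Eif2b5 (41.1) and Vars (57.2). Their ranges over the libraries overlapped as well. The lowest number of reads of any member in a library was 24. Within eEF1, Eef1a1 stood 41.9-fold to 50.7-fold above Eef1b2 per length, a ratio that differed little between the 4 libraries.

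**Figure D4:**
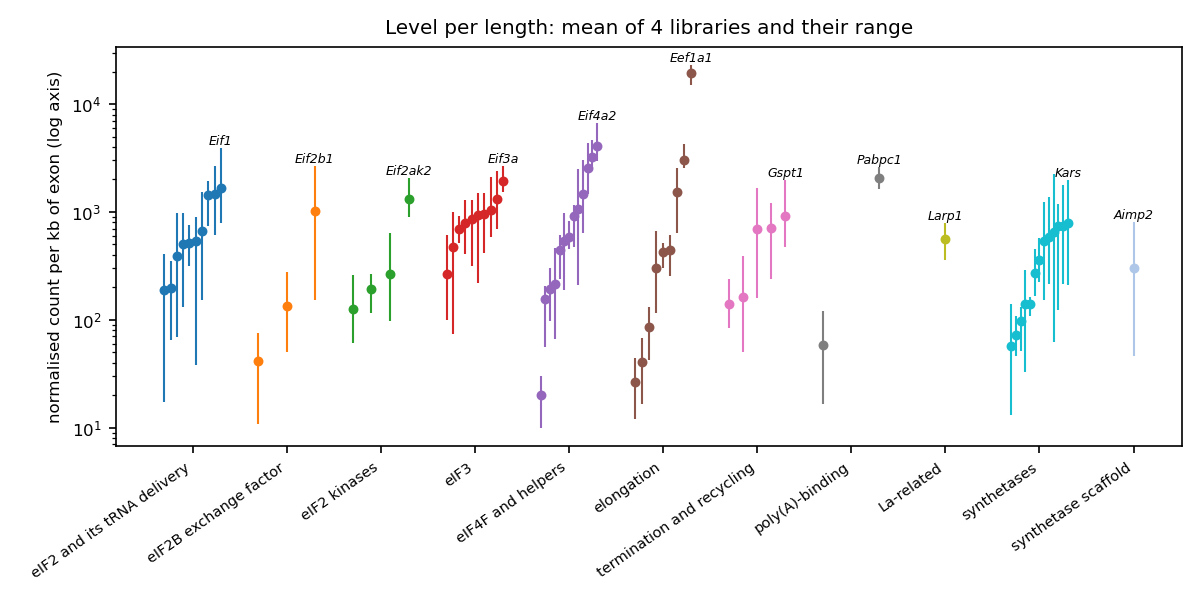
Normalised count per kilobase of exon (log axis) for each member, as the mean of the 4 libraries (point) with their lowest and highest value (line), grouped by role, with the most abundant gene of each role named. Eef1a1 is highest at 19325 and Eif4e1b lowest at 20.0.

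Single libraries shaped many of these values. The 71 genes took 0.667% and 0.818% of the reads in eGFP 1 and 2, and 0.847% and 0.708% in mVEGF-C 1 and 2. The share was lowest in a control and highest in an mVEGF-C library, and the groups overlapped. Of the 71, 26 had their highest value in mVEGF-C 1, 20 in eGFP 2, 18 in mVEGF-C 2 and 7 in eGFP 1. Over all genes, 27.9% were highest in mVEGF-C 1, 28.0% in eGFP 2, 24.4% in mVEGF-C 2 and 19.6% in eGFP 1. The lowest value fell in eGFP 2 for 23, eGFP 1 for 20, mVEGF-C 1 for 16 and mVEGF-C 2 for 12. Over all genes these shares were 27.4%, 19.1%, 29.1% and 24.4% in the same order. With each library left out in turn, 37 of the 71 kept the sign of their fold change, 25 above and 12 below 0. This count was not made over all genes, so it does not set the members apart from them.

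Upstream, mTORC1 and the 4E-BP proteins set the activity of eIF4F, and 11 of 18 listed genes were measured. By limma 0 were called, where 2.14% of all genes were. Of the 11, 6 were above 0 and the median was 0.10. Akt1s1 (PRAS40), an inhibitor within mTORC1, had 360 and 321 in eGFP and 41.7 and 34.4 in mVEGF-C libraries, at -3.13 ± 1.29 (SE, limma adjusted p = 0.227). Deptor, another inhibitor of mTOR, had 3811 and 4388 against 1449 and 817 (-1.91, limma adjusted p = 0.368). Both were lower in both mVEGF-C libraries, without overlap. So were Rps6kb1 (3056 and 2557 against 1223 and 960, -1.37) and Mtor itself (4082 and 1823 against 1262 and 1168, -1.17). In this list 4 of the 11 genes were lower and 1 higher without overlap, against 19.8% and 19.4% of all genes. DESeq2 called Akt1s1 (adjusted p = 0.00639), where it called 6.63% of all genes, and edgeR did not (adjusted p = 0.246). Eif4ebp1 and Eif4ebp2, the repressors of the cap-binding protein, stood at 0.57 and 0.33.

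Of ATF4 and its targets 14 of 24 listed genes were measured, 7 above and 7 below 0, with a median of -0.08. In limma 1 was called, where 2.14% of all genes were. This was Atf5, a relative of ATF4 that is itself translated when eIF2 is phosphorylated. It rose from 5.37 and 10.7 in eGFP to 156 and 397 in mVEGF-C libraries, a log2 fold change of 4.86 ± 1.31 (SE, limma adjusted p = 0.0163). The control values were low, and the log2 fold change was 4.32 with 5 instead of 1 added to each normalised count. The call held in edgeR (adjusted p = 0.0322) and DESeq2 (adjusted p = 3.17e-05) and was lost without eGFP 1 (adjusted p = 0.386), eGFP 2 (0.468) or mVEGF-C 2 (0.0781) and without the trend (0.0584). Atf3, a repressor induced by stress, had 142 and 254 against 17.1 and 7.43 (-3.95, limma adjusted p = 0.084). DESeq2 called Atf3 lower (adjusted p = 0.00162), and edgeR did not (adjusted p = 0.11). Psph, an enzyme of serine synthesis, had 29.6 and 51.3 against 136 and 1513 (3.51, limma adjusted p = 0.143). DESeq2 called Psph higher (adjusted p = 0.00206), as did limma without mVEGF-C 1 (adjusted p = 0.0157), while edgeR did not (adjusted p = 0.0648). Without mVEGF-C 2, the library with the high value, the log2 fold change of Psph was 1.77. Atf4 itself had 741 and 805 against 719 and 125 (-1.36, limma adjusted p = 0.759), low in mVEGF-C 2 alone.

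Of genes for ribosome rescue and for the modification of factors, 12 of 23 were measured. By limma 0 were called, where 2.14% of all genes were, with 6 above 0 and a median of 0.02. Those of lowest p were Impact, a restraint on GCN2 activation (1.37, limma adjusted p = 0.705), and Paip1, a partner of the poly(A)-binding protein (1.22, limma adjusted p = 0.794). Of the mitochondrial synthetases and factors, which serve translation inside the organelle, 11 of 27 were measured. By limma 0 of these were called, again beside 2.14% of all genes. Their median was 0.06, with 6 above 0. Wars2, the mitochondrial tryptophan enzyme, stood at -2.17 (limma, adjusted p = 0.492) and Tsfm, a mitochondrial elongation factor, at -1.63 (limma, adjusted p = 0.714).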

How the data were processed

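The authors deposited 1 table of a signal, normalised read counts for 9114 genes in 4 libraries. FastQC, Trimmomatic, Salmon and DESeq2 on mm10 are named, without versions, per the submitters' processing notes; the sources used here give no annotation or strand setting. Dividing each library by its smallest non-zero value gave whole numbers (100% within 0.001), taken as reads. Their totals cover the genes of the table only, at 25610683 to 28632461 reads. Counts without molecular identifiers give counting error only, so no interval is given for single libraries.

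Groups came from the sample titles. The normalised counts were compared with limma 3.58.1 under R 4.3.3 (linear model, moderated variance with trend) on log2(normalised count + 1), two-sided, with a Benjamini-Hochberg adjustment over 9063 genes, those whose mean reached 10. Calls were made at an adjusted p under 0.05, and fold changes understate low genes. The fit had 2 residual degrees of freedom and an infinite prior, so each error came from the trend. An exact permutation of 2 against 2 libraries cannot give a p under 0.333, so none was used. edgeR 4.0.16 and DESeq2 1.42.0 were run on the recovered reads as alternatives. The script was tested on simulated data. Positions and merged exon lengths are from GENCODE vM21 (GRCm38) and promoters from RefSeq.

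The members, the role and pathway lists and the tests were chosen with earlier results of these data known. Named were the 3 genes of lowest p in each role list, the measured members of the small complexes, the 5 highest and lowest per length and, of each pathway list, called genes and the 2 of lowest p. The other members are named to account for all 71. Eif4e1b was added to its role list, and Eif4ebp1, Eif4ebp2, Mtor, Rps6kb1 and Atf4 were named, after the values were seen. Same-numbered libraries did not deviate together (r = 0.0001 over 9063 genes). One promoter sequence is not reported here.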

Additional observations from a re-analysis of the deposited data

How the results depend on the processing

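Each group had 2 libraries, and the lowest number of reads of a member in a library was 24. Leaving out 1 library in turn gave 0 to 1 members called higher and 0 to 1 called lower. Over all genes it gave 5 to 104 called higher and 0 to 188 called lower, where the 0 without eGFP 2 stands beside 196 lower genes at an unadjusted p under 0.05 in limma. DESeq2 called 3 members higher, 283 genes higher and 318 lower, edgeR called 79 lower, and limma without the trend 15 higher and 26 lower. The median of the members lay between 0.18 and 0.45 in all alternatives. In the fits without 1 library 37 of the 71 members kept their sign, and 64 did in the other 8 alternatives. The cause of the changes was not tested.

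The direction turned in these fits. Scaled to 1 total, Eef1a1 was -0.03, Eif4e3 -0.0032, Eif5 -0.06 and Pabpc1 -0.02. In edgeR, Eif4a3 was 0.83, Eif4e1b -0.0036, Eif4e3 -0.09, Eif5 -0.08 and Pabpc4 0.52. In DESeq2, Eif4a3 was 0.82, Eif4e1b -0.02, Eif4e3 -0.11, Eif5 -0.1 and Pabpc4 0.49. The log2 fold changes without 1 library spanned 0 for Aars (-0.04 to 0.87), Abce1 (-1.31 to 0.93), Abcf2 (-1.09 to 1.84), Abcf3 (-1.11 to 0.20), Eef1a1 (-0.25 to 0.35), Eef1akmt3 (-0.0031 to 1.30), Eef1b2 (-0.17 to 0.59), Eif1ax (-0.72 to 2.49), Eif2ak4 (-0.02 to 1.67), Eif2b3 (-1.41 to 1.05), Eif2b5 (-0.53 to 1.83), Eif2s3y (-1.14 to 0.03). They also did for Eif3a (-0.58 to 0.21), Eif3c (-0.45 to 0.38), Eif3d (-0.36 to 1.26), Eif3e (-1.51 to 0.50), Eif3f (-0.68 to 0.95), Eif3m (-2.06 to 0.71), Eif4a1 (-1.05 to 0.47), Eif4a2 (-0.10 to 1.06), Eif4a3 (-1.86 to 1.71), Eif4b (-0.18 to 1.11), Eif4e1b (-0.60 to 0.95), Eif4e3 (-0.72 to 0.89). The same held for Eif4h (-0.78 to 1.46), Eif5 (-0.61 to 0.66), Etf1 (-0.44 to 2.32), Gspt1 (-1.79 to 0.08), Hars (-1.94 to 0.52), Lars (-0.40 to 2.09), Pabpc1 (-0.27 to 0.40), Pabpc4 (-1.53 to 1.32), Sars (-1.01 to 0.32), Wars (-1.01 to 0.32). Outside the members, it held for Paip1 (-0.36 to 2.80).

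The replicate block on the library numbers, which mark no shared animals in the labels, gave 74 genes higher and 129 lower, 0 members called by limma (4 higher and 2 lower unadjusted) and a member median of 0.342.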
